A study of Homo sapiens with 6 samples.

Results

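HLA class I molecules are cell-surface proteins that show short peptides from inside the cell to CD8+ T cells and to natural killer cells. Each one pairs a heavy chain (encoded by HLA-B, HLA-C, HLA-E, HLA-F and others) with beta-2 microglobulin, the invariant light chain encoded by B2M. Peptides made by the proteasome are pumped into the endoplasmic reticulum by the transporter TAP1/TAP2, and tapasin, encoded by TAPBP, holds the empty heavy chain at that transporter while a peptide is loaded. NLRC5 is a nuclear protein that activates class I genes at promoters bound by the RFX and NF-Y factors. These 9 genes were taken by symbol from the RNA-seq tables, in which all 9 had a row among 58336 genes and all 9 passed the filter on low counts, as did 16416 genes in all.

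The data are from KGN cells, a line grown from an ovarian tumour of granulosa type in which FOXL2, a transcription factor needed for granulosa identity, carries the C134W protein change on 1 copy. Of 6 libraries, 3 were labelled FOXL2 WT/C134W, with no editing or treatment named (3.11, 44b and 3.11-44b). The other 3 were labelled FOXL2 WT/WT, in which the mutation had been reverted with CRISPR/Cas9 (44a, 4.72 and 4.72-44a). All RNA was taken 30 h after a transfection whose agent the labels do not give, and no library was labelled as treated with an interferon. Each genotype is represented by 2 clones, since the third title joins the names of the other 2, so tests used the 4 libraries that name 1 clone and the joined libraries are given beside them. Their p-values measure the spread between these clones, and the genotype cannot be told apart from the editing procedure. In bulk RNA, fewer cells that express a gene and less RNA per cell cannot be told apart.

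Library totals were 35332727 to 46613068 expected counts, so the members were measured with 250.57 (HLA-F in 44b) to 64525 counts (B2M in 44b), and 3 counts equal at most 0.0849 CPM. FOXL2 itself had 9.31, 10.1 and 6.34 CPM in 3.11, 44b and 3.11-44b, against 7.41, 4.83 and 4.33 CPM in 44a, 4.72 and 4.72-44a, and a gene count does not show the allele. Of the granulosa markers, NR5A1 had 34.0 to 50.0 CPM and AMH 18.3 to 36.6 CPM, while FSHR, AMHR2, GATA4 and WT1 had no count in any library. STAR had 2.07 to 6.06 CPM, and INHA and CYP19A1 had at most 0.308 and 0.287 CPM. The 11 leukocyte markers summed to 65.3 to 69.7 CPM in the WT/C134W libraries and 73.5 to 84.2 CPM in the WT/WT libraries, most of it CD68, and 7 of them, CD3E and LYZ included, were at 0 throughout. The 9 fibroblast and stromal markers, led by COL1A1, summed to 16711 to 18877 CPM in the mutant libraries against 38590 to 42929 CPM in the reverted ones, and their part in the values below was not tested. With edgeR's quasi-likelihood test, 0 of 16416 genes (0%) had an adjusted p below 0.05 and 1243 (7.57%) had an unadjusted p below 0.05. DESeq2 called 272 genes and limma voom 0.

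The promoters of the members are shown first, because class I genes share short elements that the regulators described here are known to bind. Windows from 250 bases before to 50 bases after the start site were read from RefSeq (GRCh38.p14) for 7 of 9 members, not for HLA-E and NLRC5. Capitals mark 4 motifs searched on both strands: ATTGG, the CCAAT box bound by NF-Y; GAAA followed by any 2 bases and GAAA again, the core of an interferon-stimulated response element; GGG followed by any 2 bases and TTCCC, an NF-kappaB element; and TGACG, the shorter core of a cyclic AMP response element. Copies of a motif may overlap each other. The windows are chr6:31357130-31357429 and chr6:32838690-32838989 and chr6:33314029-33314328 on the minus strand, and chr6:29723184-29723483 and chr15:44711267-44711566 on the plus strand. They cover an abundant and a scarce heavy chain, the light chain, and the 2 members with the log2 fold changes of greatest size, neither of which passed the test.
HLA-B: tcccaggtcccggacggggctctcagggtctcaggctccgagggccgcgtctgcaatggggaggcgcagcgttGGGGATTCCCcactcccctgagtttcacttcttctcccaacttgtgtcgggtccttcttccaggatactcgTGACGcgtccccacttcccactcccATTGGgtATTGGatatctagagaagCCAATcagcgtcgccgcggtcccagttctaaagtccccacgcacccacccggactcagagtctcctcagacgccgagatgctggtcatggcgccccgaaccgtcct
HLA-F: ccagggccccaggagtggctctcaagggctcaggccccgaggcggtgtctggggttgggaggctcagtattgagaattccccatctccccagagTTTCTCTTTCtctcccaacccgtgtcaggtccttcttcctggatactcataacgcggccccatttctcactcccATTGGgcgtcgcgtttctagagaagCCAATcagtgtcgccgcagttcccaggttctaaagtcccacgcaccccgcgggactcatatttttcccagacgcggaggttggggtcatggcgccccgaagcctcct
B2M: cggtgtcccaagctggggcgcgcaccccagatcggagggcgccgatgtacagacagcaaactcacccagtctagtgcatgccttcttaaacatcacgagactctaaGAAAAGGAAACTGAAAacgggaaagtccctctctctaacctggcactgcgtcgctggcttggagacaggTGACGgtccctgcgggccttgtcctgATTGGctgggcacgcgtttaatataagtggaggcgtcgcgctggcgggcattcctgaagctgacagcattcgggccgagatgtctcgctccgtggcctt
TAP2: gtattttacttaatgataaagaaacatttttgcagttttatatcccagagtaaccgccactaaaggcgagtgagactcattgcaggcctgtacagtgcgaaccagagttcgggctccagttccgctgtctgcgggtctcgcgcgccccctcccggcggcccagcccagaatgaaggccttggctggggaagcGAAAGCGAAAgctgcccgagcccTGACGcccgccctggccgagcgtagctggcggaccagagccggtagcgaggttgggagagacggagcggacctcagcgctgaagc
TAPBP: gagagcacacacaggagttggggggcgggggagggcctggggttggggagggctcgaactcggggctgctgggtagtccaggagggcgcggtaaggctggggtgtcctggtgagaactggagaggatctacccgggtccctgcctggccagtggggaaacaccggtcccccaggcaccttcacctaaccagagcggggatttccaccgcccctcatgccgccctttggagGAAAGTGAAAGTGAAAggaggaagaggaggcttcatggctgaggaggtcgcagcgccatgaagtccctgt

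The CCAAT box was found in 5 of the 7 windows (HLA-B, HLA-C, HLA-F, B2M and TAP1), against 34.6% of 35116 promoter windows of the same length. In HLA-B, HLA-C and HLA-F a pair of boxes on opposite strands began at 80 to 82 and at 56 to 57 bases before the start site, so these heavy chain promoters share that layout. Further boxes began at 74 bases in HLA-B and at 95 and 192 bases in HLA-C. The interferon core was found in 5 windows (HLA-F, B2M, TAP1, TAP2 and TAPBP), against 3.57% of all windows. TGACG was found in 4 windows (HLA-B, HLA-C, B2M and TAP2), against 24.6%, and the NF-kappaB element in 1 (HLA-B), against 2.17%. A match describes letters in the window and not binding, and the windows hold the reference sequence, not that of KGN. The search took only the spellings given above, so a window without a match may hold a variant of the element.

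Class I transcripts were abundant in both genotypes. On the TPM scale, which is per length and so allows genes to be compared, B2M was the highest member in every library and lay between rank 20 and rank 26 of all genes. Its level was 5063 TPM in 3.11, 4592 in 44b and 4687 in 3.11-44b, against 4277 in 44a, 4627 in 4.72 and 4858 in 4.72-44a. HLA-B was next in all 6 libraries, at 1011, 1122 and 953 TPM in WT/C134W (3.11, 44b and 3.11-44b) and 919, 1259 and 1149 TPM in WT/WT (44a, 4.72 and 4.72-44a). Then came HLA-C at 420, 474 and 436 TPM against 478, 496 and 474 TPM, and HLA-E, whose product shows leader peptides of other class I chains to natural killer cells, at 103, 101 and 100 TPM against 103, 107 and 99.5 TPM. These 4 ranks were the same in all 6 libraries and the gaps between them were larger than the spread over libraries. HLA-F, a nonclassical heavy chain, and NLRC5 were the scarcest members, at 9.74 to 20.3 TPM and 18.2 to 24.1 TPM in WT/C134W, against 11.6 to 16.3 TPM and 11.7 to 16.6 TPM in WT/WT. Their ranges overlapped in both genotypes. Within a library NLRC5 lay above HLA-F except in 44a, where it had 11.7 TPM against 13 TPM, so their order was not the same in all libraries. The TPM of B2M divided by the summed TPM of the 4 heavy chain members was 3.26, 2.69 and 3.12 in WT/C134W and 2.83, 2.47 and 2.79 in WT/WT, with overlap between genotypes.

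Between genotypes the heavy chains differed little, and the comparison that follows uses TMM-normalised CPM, in which a gene is compared with itself across libraries. HLA-B had 459 CPM in 3.11, 537 in 44b and 492 in 3.11-44b, against 471 in 44a, 629 in 4.72 and 558 in 4.72-44a. The genotypes overlapped, and the clones of 1 genotype differed by more (4.72 had 1.34 times the level of 44a) than the genotype means, 498 ± 55.3 and 550 ± 112 CPM (SD, n = 2 each). HLA-C had 337, 386 and 363 CPM in WT/C134W and 414, 454 and 420 CPM in WT/WT. All mutant libraries lay below all reverted ones, with a log2 fold change (WT/C134W divided by WT/WT throughout) of -0.26 ± 0.17 (SE derived from edgeR's F value) and an adjusted p of 0.788 in edgeR's test. HLA-E had 146, 154 and 144 CPM against 165, 173 and 164 CPM, again without overlap, and a log2 fold change of -0.17 ± 0.15 (edgeR adjusted p = 0.863). That HLA-C and HLA-E lay lower in both mutant clones is a pattern shared by 19.7% of all genes tested.

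**Figure D1:**
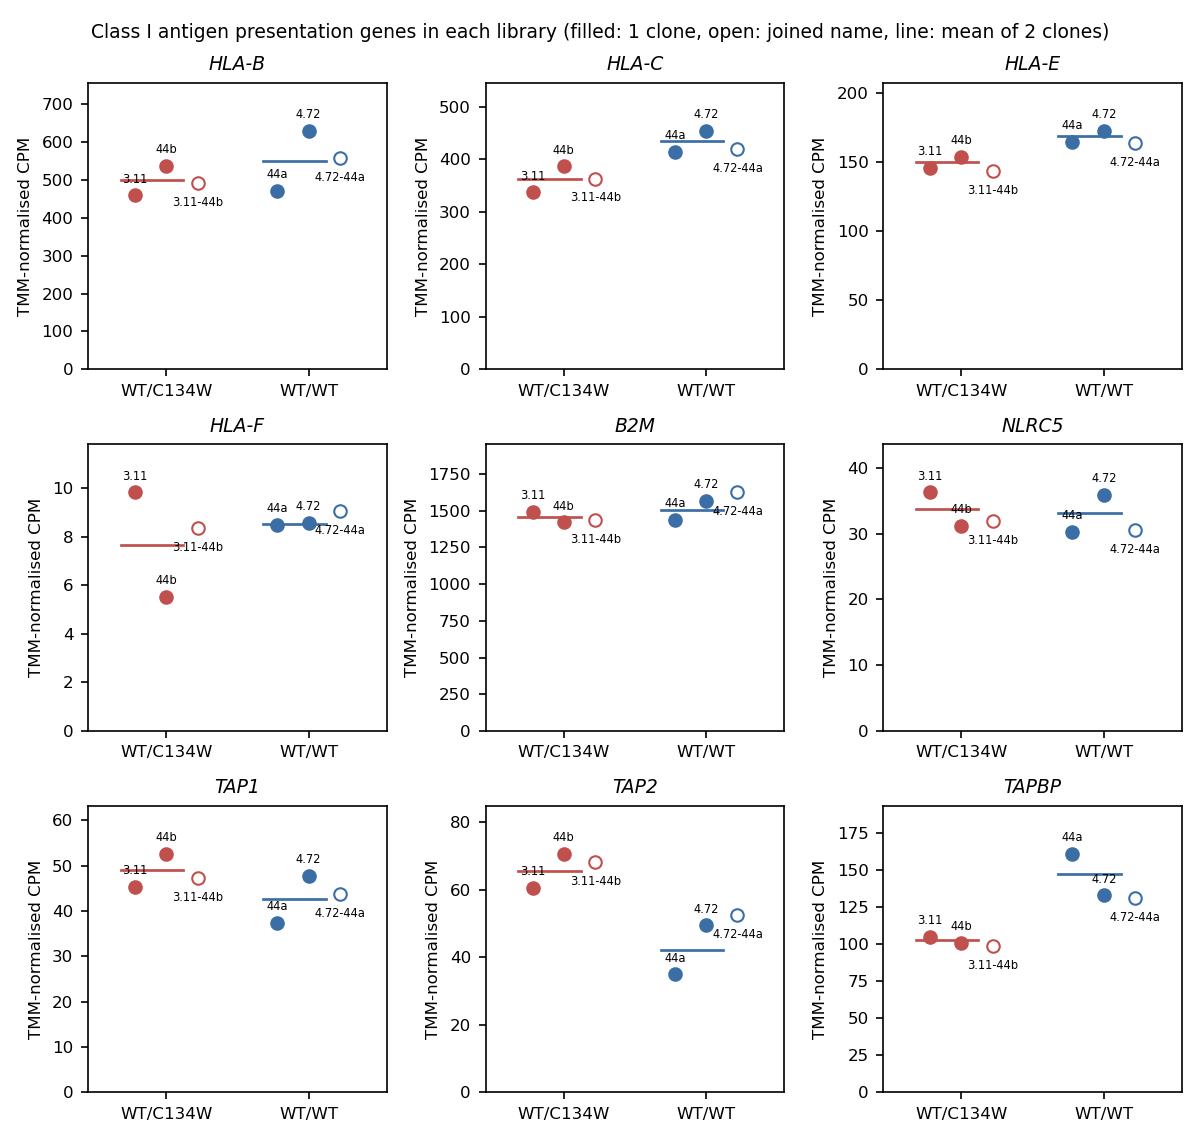
TMM-normalised CPM of the 9 genes (vertical axes, from 0) in the WT/C134W libraries (red, left) and the WT/WT libraries (blue, right); filled points name 1 clone, open points are the joined libraries and lines are means of 2 clones. TAP2 lies higher and TAPBP, HLA-C and HLA-E lie lower in all WT/C134W libraries, and the genotypes overlap for the other 5 genes.

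HLA-F was the least abundant heavy chain and the most uneven between mutant clones. It had 9.84 CPM in 3.11, 5.53 in 44b and 8.38 in 3.11-44b, against 8.50 in 44a, 8.58 in 4.72 and 9.05 in 4.72-44a. The level in 44b was 0.562 times that in 3.11 (250.57 and 406.58 expected counts), whereas the reverted clones were at a ratio of 1.01. Its log2 fold change of -0.15 ± 0.37 (edgeR adjusted p = 0.978) was 0.20 without 44b and -0.62 without 3.11, so its sign depended on the clone kept. B2M had 1494, 1423 and 1438 CPM in WT/C134W and 1439, 1567 and 1626 CPM in WT/WT, with overlap between the single clones. Its log2 fold change was -0.04 ± 0.18 (edgeR adjusted p = 0.99). The highest B2M level was 1.14 times the lowest over the 6 libraries, and 2.03% of the genes tested had so small a range.

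The heavy chain directions depend on the scaling. The log2 fold changes of HLA-B, HLA-C, HLA-E and HLA-F lay between -0.26 and -0.14 with TMM, but between -0.04 and 0.09 with library totals as the only scaling, where the median of all genes moved to 0.23. Relative to that median all 4 remained negative, by at least 0.14. On the log2(TPM + 1) scale, where the median of all genes was 0.15, they lay between -0.12 and 0.19. HLA-B (chromosome 6, 31269491 to 31357188, minus strand, GENCODE release 29, GRCh38) overlaps HLA-C (31268749 to 31272130) on the same strand in this annotation, and their coding sequences are similar enough for reads to be shared out between them. The summed HLA-B and HLA-C level was 796, 924 and 855 CPM in WT/C134W and 884, 1082 and 977 CPM in WT/WT, with overlap and a log2 fold change of -0.19 ± 0.20 (edgeR adjusted p = 0.892). HLA-E (30489467 to 30494205) and HLA-F (29722775 to 29738528) lie on the plus strand of the same chromosome, and B2M on chromosome 15 (44711487 to 44718877, plus strand). Divergent alleles of a cell line can also lose reads against a reference, so levels of different HLA genes carry an error that the replicates do not show.

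The 3 loading genes on chromosome 6 did not share a direction. TAP2, the transporter subunit on the minus strand at 32821833 to 32838780, had 60.6 CPM in 3.11, 70.7 in 44b and 68.2 in 3.11-44b, against 35.0 in 44a, 49.5 in 4.72 and 52.6 in 4.72-44a. Every mutant library was above every reverted one, and 19.9% of all genes were higher in both mutant clones. TAP2 had the largest positive log2 fold change of the 9, 0.64 ± 0.22 with an unadjusted p of 0.0296 and an adjusted p of 0.647 in edgeR's test, and this was 0.39 without 44a and 0.91 without 4.72. TAPBP, the tapasin gene (33299694 to 33314387, minus strand), had 105, 101 and 98.6 CPM in WT/C134W and 161, 133 and 131 CPM in WT/WT, with no overlap in the opposite direction. Its log2 fold change was -0.51 ± 0.16 (edgeR unadjusted p = 0.0224, adjusted p = 0.638). TAP1, the partner of TAP2 in the transporter (32845209 to 32853978, minus strand), had 45.3, 52.6 and 47.2 CPM against 37.4, 47.8 and 43.8 CPM. The genotypes overlapped at TAP1, with a log2 fold change of 0.20 ± 0.20 (edgeR adjusted p = 0.879). Its TPM, 32.5, 33.7 and 31.0 against 22.4, 27.7 and 26.5, did not overlap, and 30.6% of all genes were higher in TPM in both mutant clones. None of the 9 members passed, in a test in which 0% of all genes passed. TAP2 and TAPBP were the 2 members with an unadjusted p below 0.05, against 7.57% of all genes, and 4 of 9 members, HLA-C, HLA-E, TAP2 and TAPBP, showed no overlap between the clones of the genotypes, against 39.6% of all genes.

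**Figure D2:**
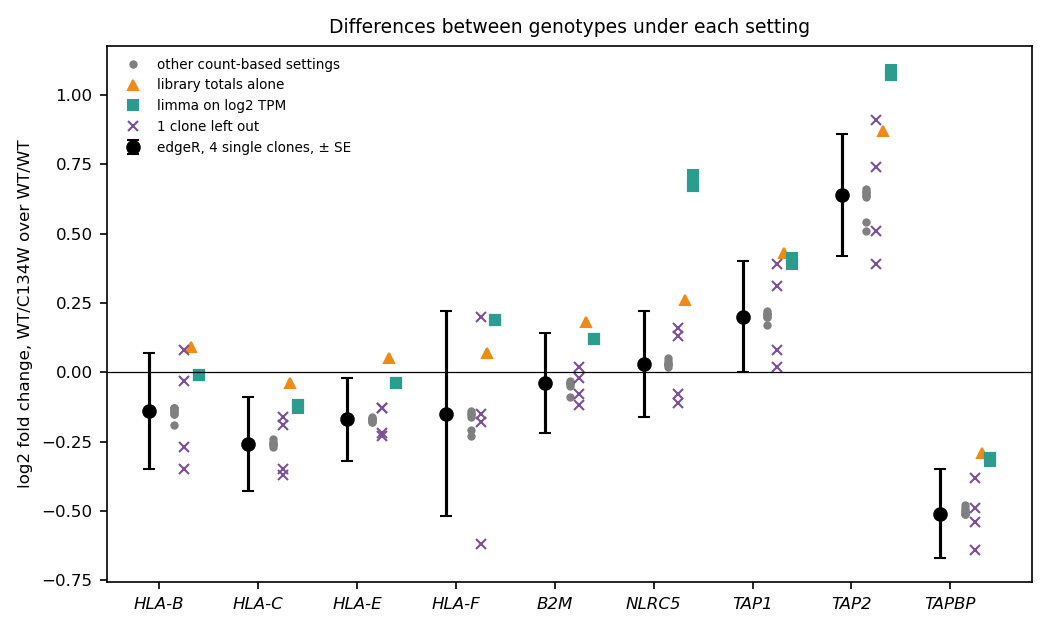
Log2 fold changes (vertical axis, WT/C134W divided by WT/WT) of the 9 genes, with edgeR's value on 4 single clones ± SE in black beside each alternative setting. TAP2 stays above 0, at 0.39 to 1.09, and TAPBP below 0, at -0.64 to -0.29, while HLA-B, HLA-E, HLA-F, B2M and NLRC5 cross 0.

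Ratios within a library do not depend on how libraries are scaled. The expected count of TAPBP divided by that of TAP2 was 1.74 in 3.11, 1.43 in 44b and 1.44 in 3.11-44b, against 4.61 in 44a, 2.68 in 4.72 and 2.49 in 4.72-44a. All WT/C134W libraries were below all WT/WT libraries in this ratio, and 44a stood apart from the other reverted clone. That separation follows from the opposite directions of TAP2 and TAPBP given above and is no further evidence. TAPBP over TAP1 was 2.33, 1.92 and 2.09 against 4.31, 2.78 and 2.99, again without overlap. TAP2 over TAP1 was 1.34, 1.34 and 1.45 against 0.935, 1.04 and 1.20. On the TPM scale TAP2 ranked above TAPBP in the 3 WT/C134W libraries and below it in the 3 WT/WT libraries, with TAP2 at 68.1, 79.8 and 78.7 TPM against 27.9, 42.7 and 29.6 TPM, and TAPBP at 47.0, 49.6 and 46.6 TPM against 66.0, 55.1 and 56.4 TPM. These ratios were computed for genes chosen after their values were seen and were not tested, and no share over other pairs of genes was computed. In this annotation TAP2 overlaps AL669918.1, a protein-coding locus on the same strand, which had 209, 144 and 0 counts in WT/C134W and 378, 198 and 116 counts in WT/WT. With both loci summed the level was 65.7, 73.9 and 68.2 CPM against 43.5, 54.4 and 55.6 CPM, and the log2 fold change was 0.51 ± 0.18 (edgeR adjusted p = 0.647).

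NLRC5, the class I transactivator (chromosome 16, 56989485 to 57083531, plus strand), had nearly the same share of reads in both genotypes. It had 36.3 CPM in 3.11, 31.2 in 44b and 31.9 in 3.11-44b, against 30.3 in 44a, 35.9 in 4.72 and 30.5 in 4.72-44a, a log2 fold change of 0.03 ± 0.19 (edgeR adjusted p = 0.996). In TPM the same reads gave 24.1, 18.2 and 21.0 TPM against 11.7, 14.0 and 16.6 TPM, without overlap (30.6% of all genes were higher in TPM in both mutant clones), and a difference on the log2(TPM + 1) scale of 0.67 (limma adjusted p = 0.635). The deposited gene length, an average over 29 annotated transcripts weighted by their estimated share, was 2507, 2716 and 2452 bases in WT/C134W and 3713, 3623 and 2691 bases in WT/WT. The joined library 4.72-44a thus lay outside the range of the clones it names and within the range of the mutant libraries. Of all genes tested, only 49.4% had a length in 4.72-44a between those of its named clones. Lengths were shorter in both mutant clones for 13.5% of the genes tested, and the ratio of genotype means was at least as low as for NLRC5 in 2.92%. The TAP2 lengths were 1546, 1483 and 1467 bases in WT/C134W and 1880, 1722 and 2609 bases in WT/WT, where the joined library lay above both clones it names. TAP2 had a difference of 1.07 on the log2(TPM + 1) scale (limma adjusted p = 0.635) against 0.64 from counts. For TAPBP, at 3652, 3193 and 3352 bases against 3515, 3408 and 3359 bases, the lengths overlapped. Gene tables do not show which transcripts the reads were given to.

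**Figure D3:**
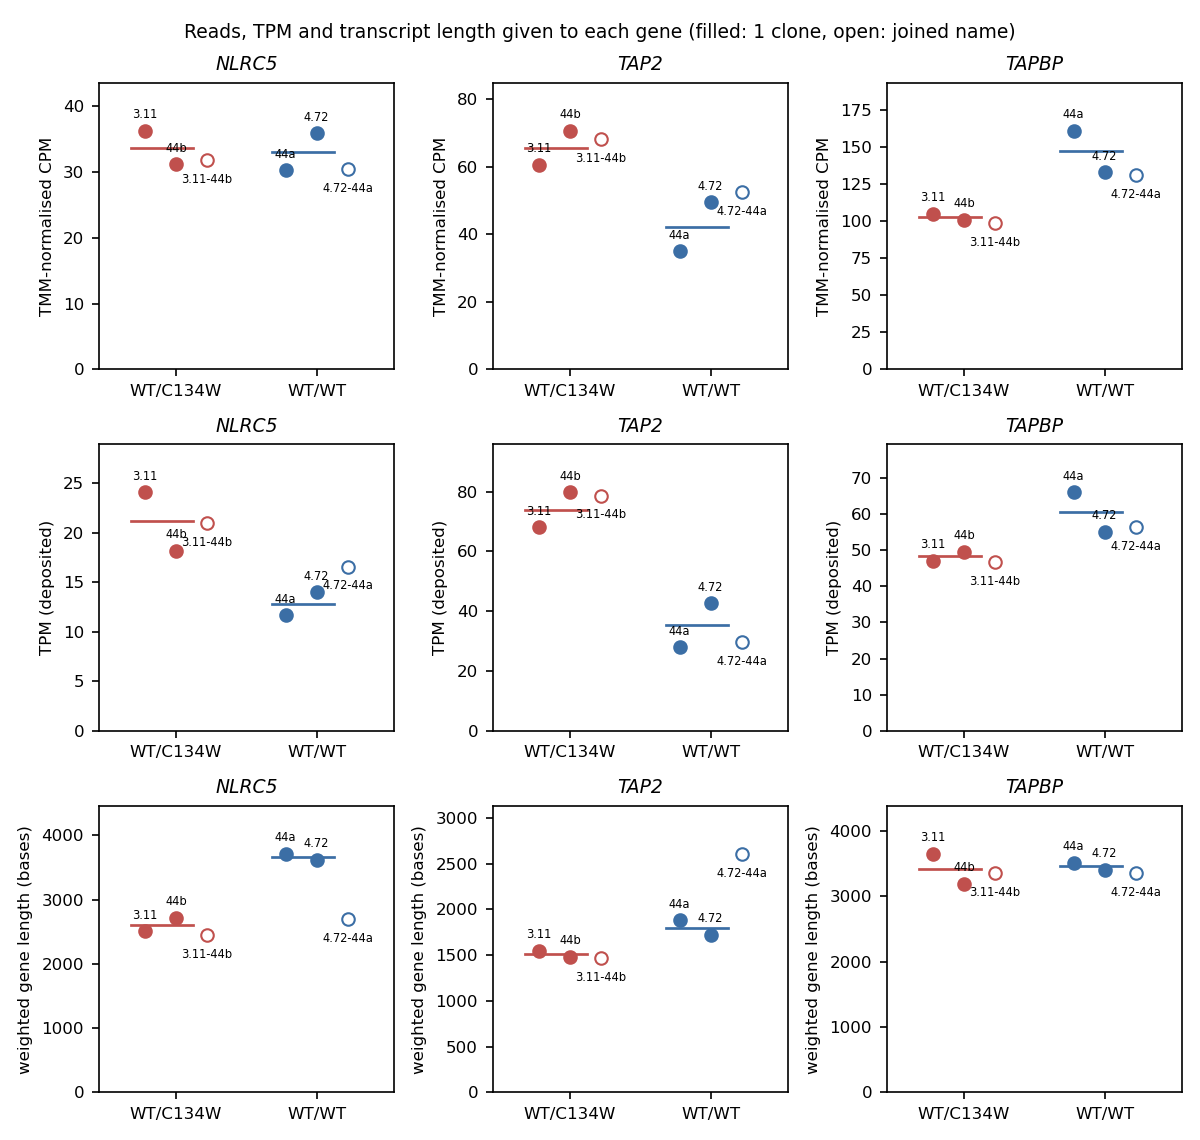
TMM-normalised CPM, deposited TPM and weighted gene length in bases (rows, axes from 0) of NLRC5, TAP2 and TAPBP in the WT/C134W (red, left) and WT/WT (blue, right) libraries; open points are the joined libraries. NLRC5 overlaps between genotypes in CPM, separates in TPM, and had shorter weighted lengths in the mutant clones, at 2507 and 2716 bases against 3713 and 3623 bases, with the joined WT/WT library at 2691 bases.

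The joined libraries may be mixes of the clones they name, so their values describe the same clones and are no independent check of direction. The log2 ratio of CPM in 3.11-44b to that in 4.72-44a was 0.37 for TAP2, -0.41 for TAPBP, -0.21 for HLA-C, -0.19 for HLA-E and -0.18 for both HLA-B and B2M. In WT/C134W the joined library lay between its named clones for 7 of 9 members, and in WT/WT for 4 of 9, while 49% and 49.3% of all genes did so.

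Genes that supply peptides or chaperone the empty heavy chain had mostly negative values, and none was called. Of 10 genes of the loading complex and peptide supply, 7 had a negative log2 fold change and 3 a positive one, with a median of -0.22 against 0.01 for all genes, and 0 passed edgeR's test. CALR, the calreticulin that holds class I heavy chains during loading, had 1303, 1231 and 1203 CPM in WT/C134W and 2026, 1647 and 1701 CPM in WT/WT, a log2 fold change of -0.54 ± 0.20 (edgeR adjusted p = 0.654). PDIA3, the oxidoreductase bound to tapasin, had 619, 512 and 575 CPM against 822, 707 and 736 CPM. TAPBPL, a tapasin-related peptide editor, had 7.76, 11.0 and 9.47 CPM against 15.2, 15.6 and 12.8 CPM. SEC61A1, the translocon channel, had a log2 fold change of -0.27. In 5 of the 10 genes, CALR, PDIA3, TAPBPL and SEC61A1 among them, both mutant clones lay below both reverted clones, against 19.7% of all genes. In 1 of the 10 both mutant clones lay above, against 19.9% of all genes. All 12 genes of the list on removal of unfolded chains and surface turnover were tested, 4 with a positive and 8 with a negative value (median -0.03, 0 called). SYVN1, a ubiquitin ligase of the endoplasmic reticulum, had a log2 fold change of -0.60, TMEM129, another such ligase, -0.56, HM13, the signal peptide peptidase, -0.55 and DERL2 -0.30.

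The proteasome genes showed small positive values. All 7 immunoproteasome and activator genes were positive, with a median log2 fold change of 0.14, PSME3 at 0.00 among them, and 0 were called. PSMB8, a catalytic subunit that replaces a constitutive one, had 48.6, 42.2 and 41.6 CPM in WT/C134W and 30.3, 38.1 and 37.7 CPM in WT/WT (0.41 ± 0.19, edgeR adjusted p = 0.702). PSMB9, whose gene stands head to head with TAP1 and overlaps it on the opposite strand, had 36.9, 21.3 and 26.1 CPM against 20.1, 23.7 and 23.1 CPM, and of the single mutant clones 3.11 alone lay above both reverted clones. PSMB10 and POMP, the assembly chaperone, had log2 fold changes of 0.29 and 0.14. Of 14 constitutive proteasome genes 11 were positive and 3 negative, with a median of 0.14 as well and 0 called, led by PSMA1 at 0.30, PSMA2 at 0.25, PSMA4 at 0.23 and PSMB3 at 0.21.

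Regulators of class I transcription were mixed. Of 17 genes, 12 were positive and 5 negative (median 0.13), and 0 were called. RFX5, a DNA-binding subunit of the RFX complex through which NLRC5 acts, had 43.3 CPM in 3.11, 32.9 in 44b and 33.0 in 3.11-44b, against 21.3 in 44a, 19.7 in 4.72 and 22.2 in 4.72-44a. Its log2 fold change was 0.89 ± 0.20 (edgeR unadjusted p = 0.00517, adjusted p = 0.593), and the genotypes did not overlap. Of all genes tested, 19.9% were higher in both mutant clones. NFKB1, an NF-kappaB subunit, had 43.1, 41.9 and 40.0 CPM against 57.2, 58.9 and 58.6 CPM (-0.45 ± 0.15, edgeR adjusted p = 0.644). IRF1, which carries interferon signals to class I promoters, had a log2 fold change of 0.65. Among 9 genes for interferon receptors and signalling, 6 were positive and 3 negative, with IFNGR2 at -0.41, IFNGR1 at 0.39, JAK2 at 0.35 and SOCS3 at -0.31. Of 23 tested interferon-stimulated genes, 18 were positive and 5 negative, with a median of 0.34, where 50.6% of all genes were positive with a median of 0.01. Of the 23, 6 had an unadjusted p below 0.05, against 7.57% of all genes, and 0 were called. TRIM22 had 59.1, 75.8 and 58.1 CPM against 31.1, 31.2 and 30.8 CPM, and IFI44, IFIT1 and GBP2 had log2 fold changes of 1.06, 0.96 and 0.90. CXCL10 had no count in any library. The class I members themselves, many of which interferons are known to induce, had a median of -0.14, with 3 positive and 6 negative, and neither list was tested against the other.

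**Figure D4:**
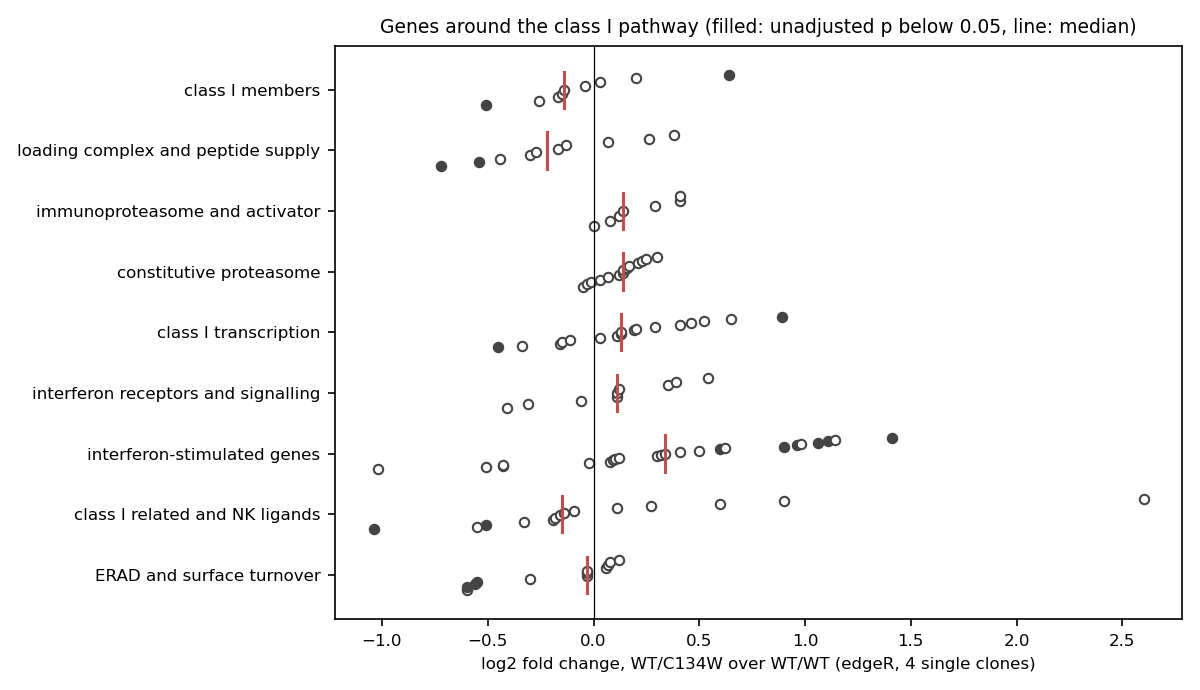
Log2 fold changes from edgeR on 4 single clones (horizontal axis, WT/C134W divided by WT/WT) of the 9 members and of 8 surrounding gene lists; each point is a gene, filled where the unadjusted p is below 0.05, and red lines are medians. Medians run from -0.22 for the loading complex to 0.34 for interferon-stimulated genes, and no gene shown passed after adjustment.

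Of 14 tested class I relatives and ligands of natural killer cell receptors, 5 were positive and 9 negative (median -0.15, 0 called). ULBP2, a ligand of the activating receptor NKG2D, had 16.9, 26.3 and 29.4 CPM in WT/C134W and 37.6, 51.4 and 40.1 CPM in WT/WT, a log2 fold change of -1.04 ± 0.28 (edgeR adjusted p = 0.593). PVR, a ligand of the receptors DNAM-1 and TIGIT, had 138, 180 and 164 CPM against 245, 208 and 206 CPM. NECTIN2, another ligand of DNAM-1, had a log2 fold change of -0.33 and HFE, a class I-like protein of iron metabolism, of 0.90. HLA-G, a nonclassical heavy chain, was scarce, at 1.45, 2.65 and 1.57 CPM against 1.20, 1.50 and 2.77 CPM, and its reads may belong to similar HLA genes.

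The genes whose profile over the 6 libraries was most like that of a member were found by the root mean square difference of log2(CPM + 1), centred on each gene's mean, among 11169 protein-coding genes. For HLA-B they were EXTL3 (0.035), ZZEF1 (0.038) and ARFIP2 (0.039), against a spread of HLA-B itself of 0.156. For TAP1 they were MTERF1 (0.039), UBAC2 (0.043) and MRPL11 (0.045), and for NLRC5 they were TMEM18 (0.028), YY1AP1 (0.035) and SLC25A51 (0.037). With 6 libraries, of which 2 may be mixes of the others, such likeness is a description of these libraries.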

How the data were processed

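RNA-seq gene tables of 6 KGN libraries were used, grouped by the genotype in the labels. Per the labels' protocols, a stranded mRNA kit was used. Per the file headers, the deposited tables hold RSEM's expected counts, which are unscaled and carry decimals because shared reads are split, and TPM, scaled by effective length by the authors. FPKM was deposited too and was not used. The deposited length is a gene's mean transcript length weighted by estimated share. The submitters' processing notes list RSEM 1.3.1, STAR 2.7.6a, DESeq2 1.26.0, Picard 2.8.1 and R 3.6.3 with no role given, and the mouse build GRCm38, although the gene IDs are human. For the human build, annotation release and strand setting no source used here gives a value, so genes overlapping on opposite strands are uncertain.

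Symbols and coordinates came from GENCODE release 29, which held 58216 of 58336 gene IDs. Expected counts were rounded to whole numbers. EdgeR 4.0.16 in R 4.3.3 (filterByExpr, TMM scaling, robust glmQLFit, glmQLFTest) was run on the 4 single-clone libraries, with Benjamini-Hochberg adjustment over all genes tested and a threshold of 0.05. Each SE was derived as |log2 fold change| / sqrt(F) from edgeR's F value, which shares information on spread across genes. CPM values are TMM-normalised over the 6 libraries. The test was run on simulated counts with known fold changes, all larger than those of the members. The simulation set the same spread for all genes. It does not show whether changes of the members' size would be found. Alternatives were all 6 libraries, DESeq2 1.42.0, limma 3.58.1 (voom, and log2 TPM with pseudocounts of 1 and 0.1, with and without a minimum mean of 1 TPM), other scalings and low-count filters, a block, and each clone left out. Totals of 35332727 to 46613068 expected counts set the precision, and a floor of 3 counts covers counting error only.

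The 9 members, the gene lists and the named-gene rule were chosen with earlier results of these data known. All members are named. From each list up to 4 genes with the smallest unadjusted p are named (some genes of the lists are not reported here), and other genes as markers or after their values were seen (AL669918.1, PSME3, CXCL10, HLA-G). Nearest patterns were sought among protein-coding genes averaging 2 CPM or more, for HLA-B, TAP1 and NLRC5. Genes listed as markers were used to check the labelled cell type.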

Additional observations from a re-analysis of the deposited data

How the results depend on the processing

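Counts of genes called across the genome depended on the setting, whereas 0 of the members passed under every setting tried. EdgeR called 0 of 16416 genes on the single clones, 511 with all 6 libraries, 664 without the low-count filter and 5 with a block for the name stem that 44a and 44b share. DESeq2 called 272. The lowest adjusted p of any member was 0.0511, for TAPBP with all 6 libraries, a fit that takes the joined libraries as separate clones. The labels give no replicate numbers, so the replicate block above rests on a shared name stem alone.

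TAP1, TAP2, TAPBP and HLA-C kept their sign in all settings run. With library totals alone the log2 fold change turned to 0.09 for HLA-B, 0.05 for HLA-E, 0.07 for HLA-F and 0.18 for B2M, all below the median of all genes there, 0.23. With limma on log2(TPM + 1), on log2(TPM + 0.1) and without the TPM filter it was 0.19 for HLA-F and 0.12 for B2M in each. Leaving out 1 clone gave -0.35 to 0.08 for HLA-B, -0.62 to 0.20 for HLA-F, -0.12 to 0.02 for B2M, -0.11 to 0.16 for NLRC5 and 0.39 to 0.91 for TAP2. Where 10 CPM were required in 2 or more libraries, HLA-F was not tested. The sums of TAP2 with AL669918.1 and of HLA-B with HLA-C were chosen after seeing the data. HLA-F, at 250.57 to 406.58 counts, is the member that depth limits most.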

Other observations

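Several genes next to the class I pathway were highest in clone 3.11, a pattern chosen after the values were seen and not tested. ERAP2, an aminopeptidase that trims peptides, had 242 CPM in 3.11, 126 in 44b and 165 in 3.11-44b, against 144 in 44a, 139 in 4.72 and 154 in 4.72-44a. HFE had 35.5, 12.3 and 16.0 CPM in WT/C134W and 10.0, 15.5 and 13.8 CPM in WT/WT. IRF1 had 27.2, 15.1 and 16.9 CPM against 13.4, 13.5 and 12.7 CPM. CIITA, the class II transactivator related to NLRC5, had 6.14, 1.52 and 2.61 CPM against 2.33, 2.98 and 2.90 CPM. In TMM-normalised CPM, HLA-B, HLA-C and HLA-E were lower in 3.11 than in the other 3 single clones. In TPM this held for HLA-C alone. HLA-B had 1011 TPM in 3.11 and 919 TPM in 44a, and HLA-E had 103 TPM in 3.11 and 101 TPM in 44b. HLA-DRA, a class II chain, had 1.60, 0.816 and 0.913 CPM in 3.11, 44b and 3.11-44b, against 0.861, 9.02 and 4.67 CPM in 44a, 4.72 and 4.72-44a, and so was highest in 4.72.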
